A study of Mus musculus with 9 samples.

Results

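Brains of mice with 1 inactivated copy of Tfap2a were compared directly with brains of mice labelled as having 1 inactivated copy of Tfap2b, across all measured genes. The series holds 9 libraries of polyadenylated brain RNA from adult male mice aged 3 to 4 months, 3 each from wild type (B6N), Tfap2a+/- and Tfap2b+/-. The comparison is between the 6 libraries of the heterozygotes, and the 3 B6N libraries enter the estimate of spread and give a reference level. What all groups share is the sex, the age range and the tissue name. The labels give neither the part of the brain, nor the construction of either allele, nor the strain of the heterozygotes, and they do not say that replicates were separate animals, so p-values reflect only the variation among these libraries, part of which may be technical.

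The products of Tfap2a and Tfap2b are AP-2 alpha and AP-2 beta, related transcription factors that bind DNA as dimers at GC-rich sites. Both act in neural crest cells and in the embryonic brain, where AP-2 beta marks groups of neurons in the midbrain and hindbrain. AP-2 factors are also studied as regulators of sleep, in invertebrates and in mice. KCTD proteins bind AP-2 factors and repress them, and CITED proteins are coactivators.

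Levels are given as CPM, a gene's counts relative to all counts in genes after TMM scaling, which corrects for composition. Folds are on the log2 scale as Tfap2a+/- minus the libraries labelled Tfap2b+/-, with the standard error (SE), so a positive fold means a higher level in Tfap2a+/-. Values per library are listed in the order of libraries 1, 2 and 3. Groups are said not to overlap where every library of one lies above every library of the other. The counts in genes were 22496880 to 28517579 per Tfap2a+/- library and 26216100 to 29214975 per library labelled Tfap2b+/-. A gene with no count in one of these 6 libraries could still have a level of 0.101 to 0.138 CPM, that of 3 counts, a limit that covers counting error only. Neuronal genes were abundant in all 6 libraries: the 14 genes of a general neuronal list summed to 10257 to 13398 CPM in Tfap2a+/- and 9677 to 11486 CPM in the libraries labelled Tfap2b+/-.

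Tfap2b RNA was higher in the libraries labelled as having its inactivated copy, and Tfap2a RNA overlapped between the groups. Tfap2a (ENSMUSG00000021359.16, chromosome 13) was close to the limit of counting, at 0.445, 0.223 and 0.461 CPM in Tfap2a+/- and 1.59, 0.674 and 0.113 CPM in those labelled Tfap2b+/-. The groups overlapped, with a log2 fold of -1.06 ± 0.78 and an edgeR adjusted p of 0.608. Without library 1 labelled Tfap2b+/- that fold was -0.076. Tfap2b (ENSMUSG00000025927.13, chromosome 1) stood at 1.88, 2.54 and 3.96 CPM in Tfap2a+/- and 32.9, 8.90 and 5.81 CPM in the libraries labelled as carrying its inactivated copy. Every library labelled Tfap2b+/- thus had more Tfap2b RNA than every Tfap2a+/- library, opposite to the label, with a log2 fold of -2.51 ± 1.03 (edgeR adjusted p = 0.417) that was -1.40 without library 1 labelled Tfap2b+/-. The B6N libraries, at 2.25, 0.715 and 14.8 CPM, overlapped both groups. Markers of the tectum, a midbrain region where Tfap2b is expressed, scored lower in Tfap2a+/-, though the nearest libraries (-0.98 and -0.95) almost met. Their score is the mean log2 level of the list, which includes Tfap2b, relative to the 9 libraries. It was 3.13, 1.50 and -0.95 in the libraries labelled Tfap2b+/-, -0.98, -1.23 and -1.43 in Tfap2a+/- and -1.39, -0.39 and 1.74 in B6N. Within Tfap2a+/- the score fell from library 1 to library 3 while Tfap2b rose. The part of these markers in the Tfap2b values was not tested. Counts cover the whole gene, so transcripts of an inactivated allele would be included. Each direction below refers to the libraries labelled Tfap2b+/-.

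Other family members and cofactors were read out in the same way. Tfap2d, the neighbour of Tfap2b, was at 0.719, 1.11 and 0.369 CPM in Tfap2a+/- and 7.87, 1.15 and 2.98 CPM in the libraries labelled Tfap2b+/-, without overlap (log2 fold -2.44 ± 0.87). Kctd1, a repressor of AP-2 activity, was at 100.5, 116 and 120.1 CPM in Tfap2a+/- against 44.4, 71.7 and 85.2 CPM, again without overlap and in the other direction (log2 fold 0.74 ± 0.27). Its relative Kctd15 was at 8.66, 9.58 and 11.9 against 11.7, 11.3 and 10.1 CPM, with overlapping groups. Of the coactivators, Cited4 was at 5.31, 6.28 and 6.04 against 2.44, 4.04 and 5.13 CPM without overlap, while Cited1 (log2 fold -0.91 ± 0.42) and Cited2 (-0.011 ± 0.11) had overlapping groups. None of these 8 measured genes of the 10 listed passed with edgeR. Their median log2 fold was -0.53, and -0.09 without library 1 labelled Tfap2b+/-. Tfap2c fell below the filter on low counts, and Tfap2e had no count in the 6 libraries.

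Across the 17355 genes tested, no gene differed between the heterozygotes with edgeR, whose smallest adjusted p was 0.123. An unadjusted p under 0.05 was reached by 1997 genes, which is 11.5% of those tested, 864 of them higher (4.98%) and 1133 lower (6.53%) in Tfap2a+/-. DESeq2 called 228 genes, or 1.31%, of which 98 (0.565%) were higher and 130 (0.749%) lower. The groups did not overlap for 2989 genes, 17.2% of those tested: 1393 were higher (8.03%) and 1596 lower (9.2%) in Tfap2a+/-. Over all genes the median log2 fold was -0.011, and 48.3% had a positive fold. For gene lists by shared function, cell type or brain region, these background shares are the reference for each count below. Without library 3 labelled Tfap2b+/- edgeR called 31 genes, 3 higher and 28 lower, while it called 3 without Tfap2a+/- library 2 and 2 without library 1 labelled Tfap2b+/-.

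The 24 genes of smallest p, 12 in each direction, are the genes named first. None of their folds changed sign under any of the alternatives run, although they were picked for small p and their separation is thus a description. Among the 12 that were higher in Tfap2a+/- are several genes of neuronal signalling. Kcnk2, which encodes the leak potassium channel TREK1 (ENSMUSG00000037624.15, chromosome 1, 189207930 to 189402273, minus strand), was at 90.2, 93.3 and 88.7 CPM in Tfap2a+/- and 46.5, 53.4 and 53.3 CPM in those labelled Tfap2b+/-. The B6N libraries were at 46.8, 49.3 and 62.6 CPM, so for this gene the Tfap2a+/- libraries are the ones that lie apart. The log2 fold was 0.83 ± 0.11 (edgeR adjusted p = 0.157, DESeq2 adjusted p = 9.66e-07).

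Lrrk2, a large kinase known from inherited Parkinson disease (ENSMUSG00000036273.15, chromosome 15, 91673175 to 91816120, plus strand), was at 103, 107 and 121 CPM in Tfap2a+/- and 53.8, 63.9 and 69.3 CPM in the libraries labelled Tfap2b+/-. B6N lay between them at 79.4, 85.3 and 87.0 CPM without overlapping either group, and the log2 fold was 0.82 ± 0.11. Vgf, the precursor of secreted neuropeptides that neurons make when active, was at 217, 224 and 222 CPM against 133, 149 and 147 CPM. Here B6N, at 223, 279 and 238 CPM, overlapped Tfap2a+/- and lay above the libraries labelled Tfap2b+/-. Vgf had a log2 fold of 0.63 ± 0.10 (edgeR adjusted p = 0.208).

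A pair of genes typical of striatal neurons had larger folds. Rasd2, which encodes the small GTP-binding protein Rhes (ENSMUSG00000034472.13, chromosome 8, 75213944 to 75224113, plus strand), was at 257, 249.8 and 149 CPM in Tfap2a+/- and 61.6, 96.2 and 77.8 CPM in the libraries labelled Tfap2b+/- (log2 fold 1.48 ± 0.22). Scn4b, which encodes an auxiliary subunit of sodium channels, was at 407, 390.3 and 234 CPM against 150.1, 149 and 115 CPM (log2 fold 1.32 ± 0.23). In both genes Tfap2a+/- library 3 was the lowest of its group. The B6N libraries, at 98.5, 94.4 and 86.0 CPM for Rasd2 and 134, 89.0 and 103 CPM for Scn4b, overlapped the libraries labelled Tfap2b+/-.

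Clspn, an adaptor of the DNA replication checkpoint, was at 5.13, 5.97 and 2.26 CPM against 0.494, 0.741 and 0.603 CPM, a log2 fold of 2.85 ± 0.47 and the steepest of the 12. Smaller folds on steadier levels were seen for Ivns1abp, at 183, 179 and 165 against 113, 127 and 133 CPM, and for the ubiquitin ligase gene Rnf166, at 21.4, 22.7 and 22.7 against 15.4, 16.1 and 17.2 CPM. The predicted gene Gm15446, at 18.7, 18.9 and 19.3 against 9.39, 10.3 and 10.3 CPM, had the smallest p of the genes higher in Tfap2a+/- (log2 fold 0.92 ± 0.11, edgeR adjusted p = 0.123). The other 3 of the 12, Gm42031, F630042J09Rik and Gm45640, are predicted or noncoding genes, and their log2 folds ran from 1.28 to 2.27.

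The 12 genes lower in Tfap2a+/- include a receptor subunit with a narrow expression pattern. Chrnb4, a nicotinic acetylcholine receptor subunit best known from the medial habenula (ENSMUSG00000035200.7, chromosome 9, 55028154 to 55048779, minus strand), was at 0.274, 0.223 and 0.230 CPM in Tfap2a+/- and 8.72, 4.01 and 1.77 CPM in the libraries labelled Tfap2b+/-. All 3 Tfap2a+/- libraries were thus near the limit of counting, and the log2 fold was -4.28 ± 0.70 (edgeR adjusted p = 0.224). B6N was at 0.235, 0.903 and 0.850 CPM, below the libraries labelled Tfap2b+/- and overlapping Tfap2a+/-. Adamts19, a secreted metalloprotease, was at 0.240, 0.0891 and 0.0921 CPM against 1.55, 2.97 and 3.54 CPM (log2 fold -4.15 ± 0.52). Its Tfap2a+/- libraries 2 and 3 lay below the limit of 3 counts, so the size of its fold is imprecise.

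Several widely expressed genes followed with small and even differences. Cirbp, an RNA-binding protein induced by cold (ENSMUSG00000045193.13, chromosome 10, 80165985 to 80172786, plus strand), was at 34.9, 33.8 and 34.6 CPM in Tfap2a+/- and 50.2, 45.4 and 46.5 CPM in the libraries labelled Tfap2b+/-, with B6N at 35.0, 36.7 and 32.2 CPM (log2 fold -0.46 ± 0.076). Plxna3, a plexin that serves as receptor for semaphorin guidance cues, was at 23.8, 25.2 and 23.8 against 37.0, 31.5 and 34.5 CPM (log2 fold -0.50 ± 0.082), with B6N between them at 27.2, 27.2 and 25.7 CPM. Wsb1, the substrate receptor of a ubiquitin ligase, was at 40.6, 44.6 and 44.0 against 79.6, 61.6 and 61.5 CPM, and Sh3bgrl2 was at 38.8, 36.7 and 40.1 against 74.4, 58.5 and 55.2 CPM. For Cirbp, Wsb1 and Sh3bgrl2 the B6N libraries overlapped Tfap2a+/- and lay below the libraries labelled Tfap2b+/-.

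Prune2 was at 103, 91.2 and 102 against 172, 135 and 137 CPM (log2 fold -0.59 ± 0.10), and Tex15, known from germ cells, at 1.68, 1.11 and 0.967 against 3.92, 3.77 and 4.64 CPM. The long noncoding RNA 2610035D17Rik differed in another way: it was at 5.41, 5.52 and 3.87 CPM in Tfap2a+/-, 9.18, 10.1 and 10.3 CPM in those labelled Tfap2b+/- and 13.7, 12.2 and 13.5 CPM in B6N, so that both heterozygotes lay below B6N (log2 fold between the heterozygotes -0.997 ± 0.15). Ccdc17 was at 1.06, 0.936 and 1.11 against 2.44, 2.39 and 2.23 CPM. The remaining genes of the 12, Tdpx-ps1 (log2 fold -3.94 ± 0.44) and Gm7335 (-2.74 ± 0.44), are processed pseudogenes, and their reads may be shared with near-identical copies. Tdpx-ps1 lay below the limit of 3 counts in every Tfap2a+/- library, so the size of its fold is imprecise. When genes of low counts were not filtered out, edgeR called 7 genes with adjusted p of 0.036 to 0.038: Kcnk2, Gm15446, Rasd2 and Lrrk2 were higher, and Tdpx-ps1, Chrnb4 and Adamts19 lower.

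**Figure D1:**
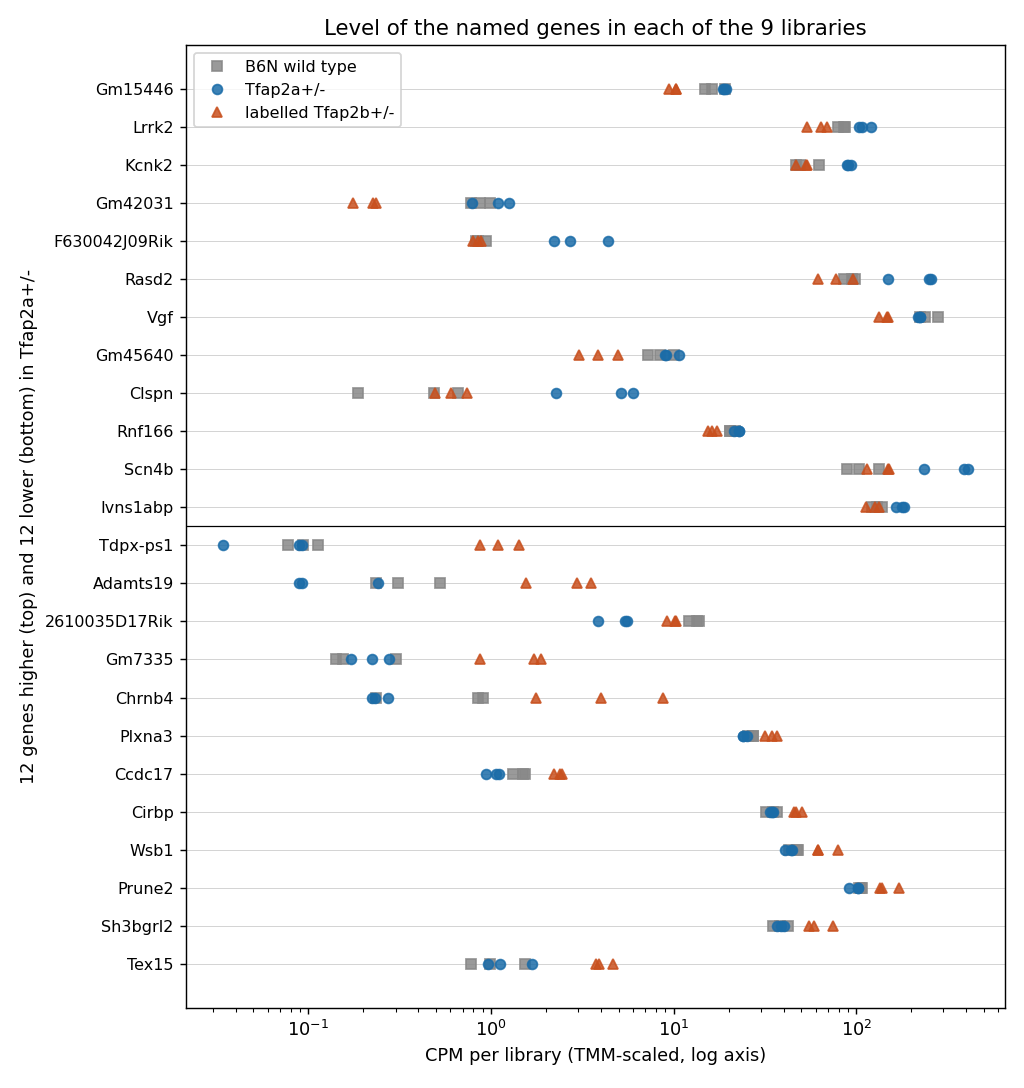
CPM of the 24 genes of smallest p in each of the 9 libraries, on a log axis, with the 12 genes higher in Tfap2a+/- above the line and the 12 lower ones below it. Circles (Tfap2a+/-) and triangles (labelled Tfap2b+/-) do not overlap in any of the 24 rows, and the position of the squares (B6N) differs from gene to gene.

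AP-2 factors bind variants of the palindrome GCCNNNGGC, which reads the same on both strands, so promoters of named genes were searched for it. The windows cover 250 bases before and 50 after each gene's start, from RefSeq on GRCm38.p6. Of the 12379 tested genes with such a window, 28.2% held a match. The share was 31.2% among the 1030 genes with a window that were higher in Tfap2a+/- without overlap and 29.4% among the 1060 that were lower, both near the share of all genes. Among the named genes 3 of 10 higher and 4 of 8 lower genes with a window held one, in Rnf166 and Cirbp only in a window whose end was not found near the start of a GENCODE transcript of the gene. Below are the 250 bases before the start for a pair of genes of each direction, shown since they hold the motif, which is in capitals, and read from 5′ to 3′ on the gene's strand. In Rasd2 a pair of matches overlap, and Kcnk2 has a match at 1 of its 4 listed starts. A match is a description of the letters and not a binding site.
Rasd2, chr8:75213694-75213943, plus strand: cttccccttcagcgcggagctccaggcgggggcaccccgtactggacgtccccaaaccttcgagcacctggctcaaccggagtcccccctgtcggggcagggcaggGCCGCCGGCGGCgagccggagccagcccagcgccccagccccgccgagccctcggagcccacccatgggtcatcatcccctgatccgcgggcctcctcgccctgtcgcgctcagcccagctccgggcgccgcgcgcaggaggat
Kcnk2, chr1:189343354-189343603, minus strand: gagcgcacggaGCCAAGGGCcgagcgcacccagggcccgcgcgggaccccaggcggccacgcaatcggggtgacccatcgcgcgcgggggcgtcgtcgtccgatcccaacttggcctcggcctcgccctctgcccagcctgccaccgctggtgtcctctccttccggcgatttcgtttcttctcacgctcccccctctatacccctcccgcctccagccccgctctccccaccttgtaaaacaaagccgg
Plxna3, chrX:74328816-74329065, plus strand: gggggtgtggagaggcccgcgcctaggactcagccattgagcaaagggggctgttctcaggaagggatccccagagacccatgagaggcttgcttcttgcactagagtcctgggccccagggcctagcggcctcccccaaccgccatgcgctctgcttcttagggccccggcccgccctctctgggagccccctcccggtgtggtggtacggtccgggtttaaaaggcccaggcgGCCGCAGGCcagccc
Sh3bgrl2, chr9:83548088-83548337, plus strand: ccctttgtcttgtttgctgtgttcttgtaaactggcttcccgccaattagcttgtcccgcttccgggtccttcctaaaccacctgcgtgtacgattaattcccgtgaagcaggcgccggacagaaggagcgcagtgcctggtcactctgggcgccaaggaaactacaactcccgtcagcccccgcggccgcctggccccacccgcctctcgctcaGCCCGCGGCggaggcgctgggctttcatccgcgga

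Genes that fold proteins in the endoplasmic reticulum (ER) mostly had higher means in Tfap2a+/- than in the libraries labelled Tfap2b+/-. Their log2 folds ran from -0.029 to 0.92, and none passed the test with edgeR. These chaperones and disulfide isomerases load, fold and check secreted and membrane proteins, and they are induced together when unfolded protein builds up. Of 19 listed genes, all measured, 18 had a positive fold, against 48.3% of all genes. In 15 of them, or 78.9%, the groups did not overlap with Tfap2a+/- higher, against 8.03% of all genes. The median log2 fold was 0.28, and it lay between 0.26 and 0.33 when each library was left out in turn.

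Hspa5, which encodes BiP, the main ER chaperone, was at 355, 318 and 313 CPM in Tfap2a+/- and 237, 225 and 210.1 CPM in those labelled Tfap2b+/-. The 3 Tfap2a+/- libraries lay above all 3 others, and the log2 fold was 0.55 ± 0.15 (edgeR adjusted p = 0.334). Hsp90b1, the ER member of the HSP90 chaperones, was at 341, 308 and 302 against 289, 265 and 258 CPM, and Calr, the calcium-binding lectin chaperone calreticulin, at 335, 355 and 313 against 263, 282 and 271 CPM. Canx, the membrane-bound relative of calreticulin, was an exception, at 420.2, 408 and 366 against 430.4, 396 and 391 CPM with overlapping groups and a log2 fold of -0.029 ± 0.085.

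Further members are named after their values were seen. Dnajb11, a cofactor of BiP, was at 50.3, 51.5 and 49.2 CPM against 36.9, 38.0 and 39.3 CPM (log2 fold 0.40 ± 0.088, DESeq2 adjusted p = 0.0133). Sdf2l1, a further ER chaperone component, was at 10.3, 8.24 and 9.90 against 4.09, 4.68 and 6.26 CPM and had the largest fold of the list (0.92 ± 0.23, DESeq2 adjusted p = 0.0369). Pdia6, a disulfide isomerase, was at 95.8, 95.5 and 92.6 against 70.6, 71.9 and 73.7 CPM. Xbp1, the transcription factor of the unfolded protein response, was at 80.0, 73.3 and 81.8 against 58.1, 58.9 and 57.4 CPM. By contrast Atf4 and Edem1 had overlapping groups, with log2 folds of 0.13 ± 0.10 and 0.015 ± 0.11.

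Over the whole list 13 members reached an unadjusted p under 0.05, all of them higher in Tfap2a+/-, against 4.98% of all genes. None passed with edgeR after adjustment. DESeq2 called 3 (Hspa5, Dnajb11 and Sdf2l1), against 0.565% of all genes. Hspa5 lay just under the threshold (DESeq2 adjusted p = 0.04999). In B6N the same genes spread more widely, with Hspa5 at 263, 273 and 392 CPM and Sdf2l1 at 8.45, 7.87 and 13.2 CPM, and library 3 the highest for both. Heat shock chaperones of the cytosol and mitochondria had a smaller median log2 fold, 0.11, and 13 of 15 had a positive fold. In 5 (33.3%, against 8.03% of all genes) the groups did not overlap, with Tfap2a+/- higher. Among the first of that list, Hspa1a was at 4.28, 4.37 and 5.16 against 3.60, 4.48 and 4.22 CPM with overlap, the inducible Hspa1b at 7.39, 6.28 and 6.59 against 1.94, 3.44 and 5.54 CPM without it, and Hsph1 at 367, 359 and 361 against 263, 304 and 291 CPM without it. Hspa8, the constitutive form, had a log2 fold of 0.19 ± 0.089.

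**Figure D2:**
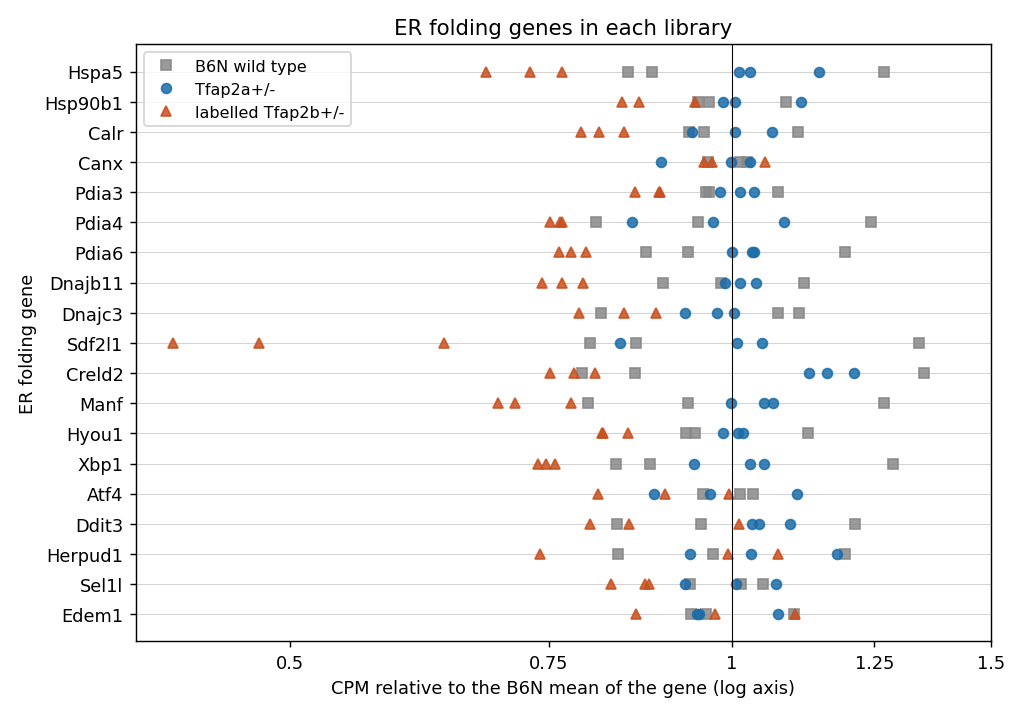
CPM of the 19 ER folding genes in each of the 9 libraries, relative to the B6N mean of each gene, on a log axis. Triangles (labelled Tfap2b+/-) sit to the left of all circles (Tfap2a+/-) for 15 genes, and squares (B6N) spread across both.

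Genes that neurons induce when they fire also had mostly higher means in Tfap2a+/-. Immediate early transcription factors are transcribed within minutes of activity, and the effector genes that follow act at synapses or in signalling. Of the 17 transcription factors 15 had a positive fold, with a median log2 fold of 0.76, and 8 of them had groups that did not overlap. Of the 20 effectors 19 had a positive fold, with a median of 0.57, and 10 had groups that did not overlap, all 18 with Tfap2a+/- higher. These were 47.1% of the factors and 50% of the effectors, against 8.03% of all genes. None passed with edgeR. An unadjusted p under 0.05 was reached by 6 factors and 9 effectors, all higher in Tfap2a+/-, against 4.98% of all genes. DESeq2 called 3 effectors (Arc, Homer1 and Vgf), against 0.565% of all genes.

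Fos was at 33.5, 14.8 and 23.9 CPM in Tfap2a+/- and 14.2, 13.4 and 10.9 CPM in the libraries labelled Tfap2b+/-, close to each other but without overlap (log2 fold 0.91 ± 0.59). Its relatives Fosb (19.5, 17.999 and 14.5 against 6.32, 11.3 and 14.6 CPM) and Jun (40.4, 52.5 and 43.6 against 38.6, 50.1 and 46.0 CPM) had overlapping groups, and Fosl2 (54.8, 44.1 and 48.1 against 28.8, 33.1 and 37.3 CPM) did not. Egr1, a zinc finger factor named after its values were seen, was at 344, 258 and 358 CPM against 97.7, 172 and 165 CPM (log2 fold 1.14 ± 0.40). B6N overlapped both groups for Egr1, at 273, 135 and 465 CPM.

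Among the effectors, Arc, which regulates synaptic glutamate receptors, was at 283, 115 and 271 CPM in Tfap2a+/- and 51.6, 63.1 and 43.9 CPM in the libraries labelled Tfap2b+/- (log2 fold 2.08 ± 0.48, edgeR adjusted p = 0.33, DESeq2 adjusted p = 0.00106). Every Tfap2a+/- library exceeded the highest of the other group, and libraries 1 and 3 did so by far. Homer1, a synaptic scaffold with an activity-induced short form, was at 315, 399.8 and 494 against 94.4, 221 and 223 CPM (log2 fold 1.17 ± 0.34). Nptx2, a secreted synaptic pentraxin, was at 46.8, 79.5 and 66.7 against 32.6, 46.7 and 35.9 CPM without overlap, and the growth factor gene Bdnf at 19.6, 29.6 and 28.3 against 14.3, 23.4 and 18.3 CPM with overlap.

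Library 1 labelled Tfap2b+/- had the lowest sum of both lists, 371 CPM for the factors against 611 and 585 CPM in libraries 2 and 3 and 847 to 1035 CPM in Tfap2a+/-. Leaving it and Tfap2a+/- library 1 out together gave a median of 0.46 for the factors. Markers of brain regions differed between the same libraries: striatal markers summed to 1625 to 4239.5 CPM in Tfap2a+/- and 848 to 1489.9 CPM in those labelled Tfap2b+/-, and cortical markers to 1840.4 to 2862 and 1313 to 2171 CPM. Their part in the activity and ER folding results was not tested.

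Noncoding RNAs listed as staying in the nucleus had lower means in Tfap2a+/-. The list also holds the predicted genes Gm26917 and Gm42418, whose place in the cell was not examined. All 11 measured members of that list had a negative fold, with a median log2 fold of -0.50, and 6 of them (54.5%) had groups that did not overlap, against 9.2% of all genes. Malat1, a very abundant RNA of nuclear speckles, was at 1059, 737 and 1077 CPM in Tfap2a+/- and 1492, 1388 and 1195 CPM in the libraries labelled Tfap2b+/-. Meg3, from an imprinted cluster, was at 1813, 1944 and 2295 against 3786, 2806 and 2590.1 CPM. Neat1, which builds paraspeckles, overlapped at 64.7, 54.0 and 45.2 against 116, 92.2 and 38.5 CPM, as did Miat at 130.0, 201 and 301 against 270.1, 266 and 243 CPM. Kcnq1ot1, named after its values were seen, was at 48.1, 32.3 and 34.5 against 75.6, 67.9 and 54.0 CPM and was the one member that DESeq2 called (adjusted p = 0.0163).

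Every Tfap2a+/- library had a smaller share of fragments outside exons than every library labelled Tfap2b+/-. Fragments that lay in no annotated exon of their strand were 8.66% ± 0.505 of all fragments in Tfap2a+/- and 11.3% ± 0.426 in the libraries labelled Tfap2b+/- (SD, n = 3), with B6N at 8.01% ± 0.788. All 3 libraries of one group lay apart from the other, and the exact permutation test gave p = 0.1 (two-sided), the smallest that 3 against 3 libraries allow. Of the 512 tested TEC transcripts, annotated from 1 exon and not yet backed by experiment, 78.7% had a negative fold, with a median log2 fold of -0.39. Of all 512, 27.0% lay lower in Tfap2a+/- without overlap, against 9.2% of all genes. Sense intronic transcripts had the same direction in 80.6% of 62, with a median of -0.44, and lincRNAs in 58.3% of 624 (median -0.13). Protein-coding genes had a median of 0.0011.

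**Figure D3:**
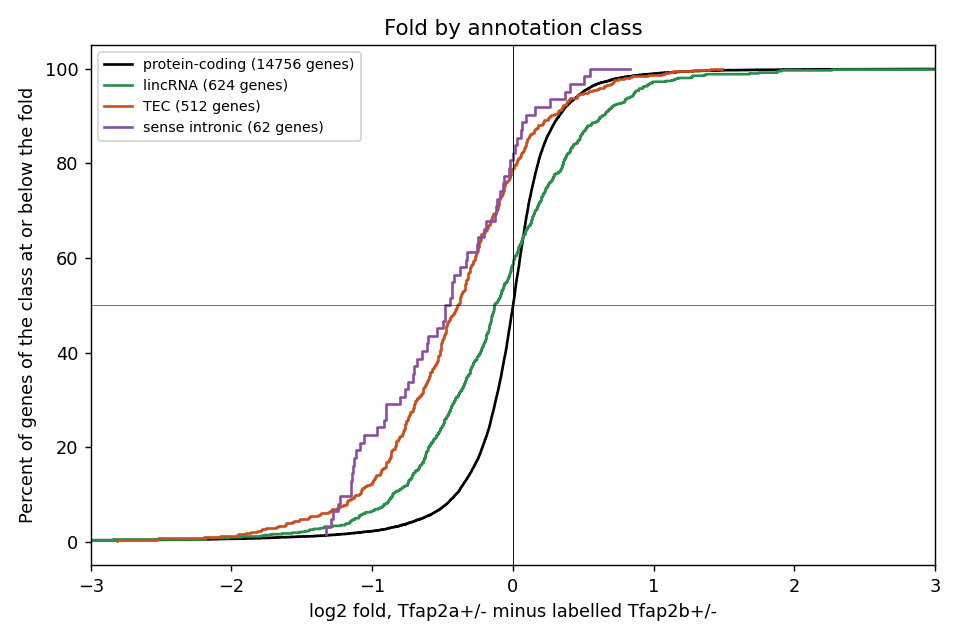
Cumulative share, in percent, of genes of 4 annotation classes at or below each log2 fold (Tfap2a+/- minus the libraries labelled Tfap2b+/-). The protein-coding curve crosses 50% near 0, and the TEC and sense intronic curves cross it at -0.39 and -0.44.

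Splicing regulators, some of whose RNAs are held in the nucleus with retained introns, formed another list. Of 16 measured genes 14 had a negative fold, with a median of -0.13. In 8 (50%, against 9.2% of all genes) the groups did not overlap, all with Tfap2a+/- lower. Clk4, a kinase of splicing factors named after its values were seen, was at 35.0, 34.9 and 34.9 CPM against 42.4, 41.1 and 45.6 CPM (log2 fold -0.30 ± 0.088), and Luc7l2, named likewise, at 158, 156 and 169 against 193, 186 and 200.3 CPM. The part of the higher share of fragments outside exons in these results was not tested. Unmapped fragments were 1.28% ± 0.0431 in Tfap2a+/- and 1.56% ± 0.126 in the libraries labelled Tfap2b+/-.

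Lists of brain region markers had some of the medians farthest from 0, and they varied widely between libraries of a group. In bulk tissue, fewer cells of a type and less RNA per cell cannot be told apart. The labels do not give the part of the brain taken, so a difference in it cannot be told apart either. Of the markers of striatal neurons, which receive dopamine, all 18 had a positive fold, with a median log2 fold of 1.75. In 7 of them (38.9%, against 8.03% of all genes) the groups did not overlap. DESeq2 called 4 (Pde10a, Rasd2, Scn4b and Ido1), against 0.565% of all genes. When each library was left out in turn the median lay between 1.37 and 2.15.

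The summed level of the striatal list was 4239.5, 3750.4 and 1625 CPM in Tfap2a+/- libraries 1 to 3 and 848, 1178 and 1489.9 CPM in the libraries labelled Tfap2b+/-. Tfap2a+/- library 3 thus lay close to the other group. Drd1, the dopamine receptor of one class of projection neurons, was at 100.1, 74.3 and 19.8 CPM against 4.24, 14.7 and 33.9 CPM, and Drd2, that of the other class, at 73.6, 62.4 and 14.8 against 16.9, 11.3 and 11.8 CPM. Drd1 overlapped through library 3 of both groups, and Drd2 through Tfap2a+/- library 3. Adora2a, the adenosine receptor of the Drd2 class, was at 81.0, 68.6 and 16.3 against 1.31, 10.8 and 15.990 CPM with groups that only just separate, and Ppp1r1b, a phosphatase inhibitor, at 452, 428 and 157 against 33.6, 93.5 and 115 CPM. Pde10a, a phosphodiesterase of these neurons named after its values were seen, was at 580.1, 517 and 204 against 68.9, 124 and 188 CPM.

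Markers of the thalamus had a negative fold in all 14 members and a median log2 fold of -1.56. DESeq2 called 2 (Tcf7l2 and Lef1), against 0.749% of all genes. Tcf7l2, a Wnt pathway transcription factor of thalamic and habenular neurons, was at 11.7, 5.39 and 4.33 CPM in Tfap2a+/- and 148, 91.8 and 5.69 CPM in the libraries labelled Tfap2b+/-. Lef1, its relative, was at 6.64, 7.26 and 6.86 against 20.1, 27.3 and 8.07 CPM, and was one of 2 members without overlap (14.3%, against 9.2% of all genes). Prkcd was at 37.8, 11.0 and 9.03 against 32.4, 251 and 11.4 CPM and Rora at 110.1, 121 and 201 against 219, 387 and 102 CPM, both with overlap. Library 3 labelled Tfap2b+/- was at the level of Tfap2a+/- in this list, summing to 311 CPM against 1066 and 1438 CPM in libraries 1 and 2. The median was -0.51 without library 2 labelled Tfap2b+/-.

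Transcription factors of the tectum and of neighbouring midbrain neurons, a list that includes Tfap2b itself, also had lower means in Tfap2a+/-. Of 15 measured members 14 had a negative fold, with a median log2 fold of -2.58. Of the members, 6 were lower without overlap (40%, against 9.2% of all genes). DESeq2 called 3 (Gata3, Sox14 and Pou4f1, the last named after its values were seen), against 0.749% of all genes. Gata3 was at 0.0342, 0 and 0 CPM in Tfap2a+/- and 16.5, 4.92 and 0.0377 CPM in the libraries labelled Tfap2b+/-, so that libraries 1 and 2 of the latter stood far above the rest. Gata2, its relative, was at 4.48, 4.46 and 4.10 against 9.18, 5.90 and 4.53 CPM, and Tal1, which works with both, at 1.30, 2.54 and 1.84 against 18.4, 6.27 and 1.77 CPM. Sox14 had no count in the 3 Tfap2a+/- libraries and was at 7.69, 1.82 and 0.0377 CPM in the others, at least 25.5-fold higher by group means against 3 counts per library. With Sox14 at that bound the median of the list stayed -2.58.

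The B6N libraries covered much of the same range, with Gata3 at 0.0470, 1.66 and 4.60 CPM and Sox14 at 0.0470, 0.414 and 2.39 CPM. Without library 1 labelled Tfap2b+/- the tectal median was -1.47. Library 1 labelled Tfap2b+/- also had the highest summed level of serotonin and hindbrain markers, 157 CPM against 22.3 to 38.2 CPM in the other 5 compared: Tph2, the enzyme of serotonin synthesis, was at 0.753, 0.936 and 0.783 CPM in Tfap2a+/- and 40.9, 1.04 and 1.55 CPM in the libraries labelled Tfap2b+/-, and Slc6a4, the serotonin transporter, at 0.0342, 0 and 0.0921 against 25.6, 0.472 and 0.566 CPM. The median of 6 measured members of 15 was -2.35, and -0.41 without that library. The catecholamine list had a median of -1.58, with Th, which makes the dopamine precursor, at 3.97, 1.51 and 0.645 against 11.6, 1.28 and 17.6 CPM and Slc6a3, the dopamine transporter, at 0.137, 0.446 and 0.322 against 9.71, 0.101 and 1.21 CPM. Its median was -0.52 without the same library.

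**Figure D4:**
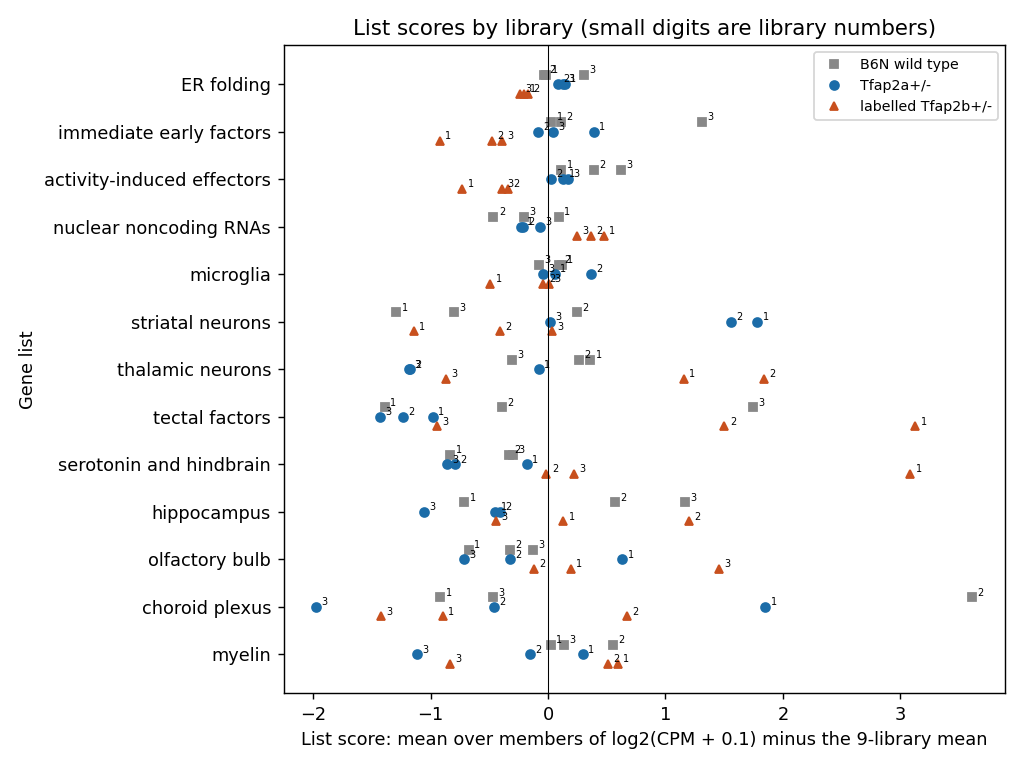
Scores of 13 gene lists in the 9 libraries: the mean over measured members of log2(CPM + 0.1), minus the mean over all libraries, with library numbers beside the points. ER folding, nuclear RNA, immediate early factor and activity-induced effector scores separate circles (Tfap2a+/-) from triangles (labelled Tfap2b+/-). Tectal scores do so narrowly (nearest libraries -0.98 and -0.95), as do serotonin and hindbrain scores (-0.18 and -0.013). Regional scores spread widely within a group.

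Several other regional lists depended on 1 library. Hippocampal markers had a median log2 fold of -1.34, with 11 of 13 negative. Only 1 was lower without overlap (7.69%, near the 9.2% of all genes). Prox1 of granule cells was at 28.1, 21.6 and 18.4 against 45.9, 88.7 and 18.3 CPM. The hippocampal median was -0.50 without library 2 labelled Tfap2b+/-. Olfactory bulb markers had a median of -0.74, which turned to 0.20 without library 3 labelled Tfap2b+/-. Without Tfap2a+/- library 1 the medians of hypothalamic (0.52), cholinergic (0.75) and choroid plexus markers (0.71) turned to -0.89, -0.26 and -0.95. Cortical markers had a median of 0.38 (0.16 without library 1 labelled Tfap2b+/-), interneuron markers 0.37 (-0.0038 without Tfap2a+/- library 1) and cerebellar markers -0.31 (-0.42 to -0.27 with each library left out in turn). Neuropeptide genes had a median of 0.68 (0.50 to 0.93 with each library left out), and 0.28 without library 1 of both groups. Of 17 measured, 13 were positive, 2 of them without overlap (11.8%, against 8.03% of all genes).

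**Figure D5:**
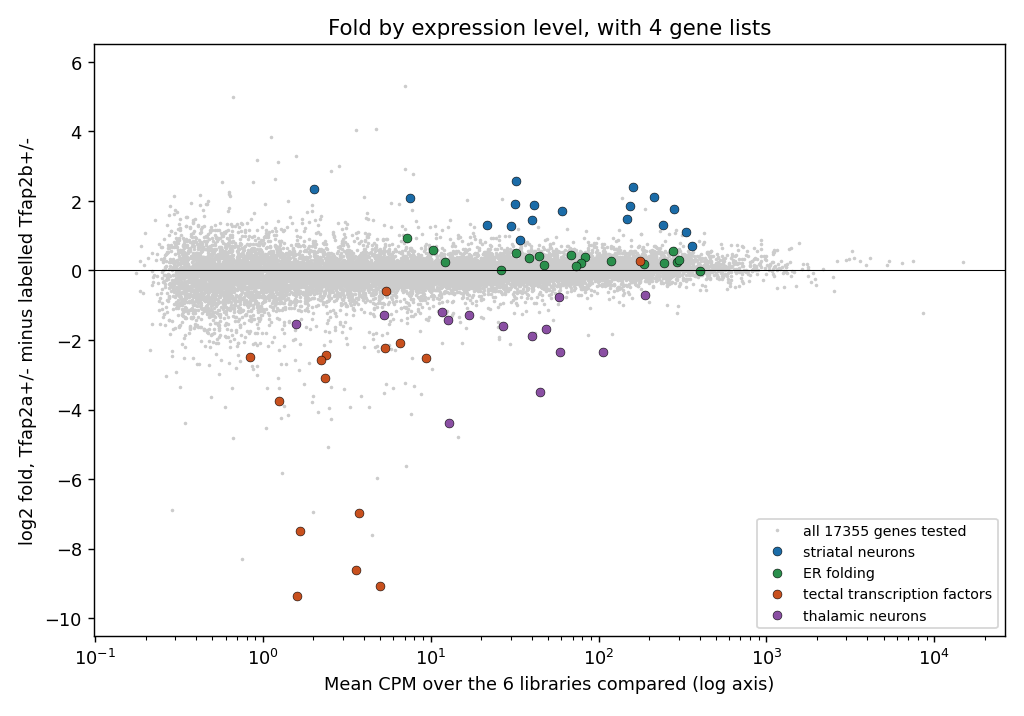
Log2 fold of each of the 17355 genes tested against its mean CPM over the 6 libraries (log axis), with 4 lists in colour. ER folding genes sit just above 0 at middle and high levels, striatal genes lie between 0.71 and 2.57, and thalamic and tectal genes lie mostly below 0 (fitted folds of genes at or near 0 counts, such as Sox14, are no measure of size).

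Glial markers gave smaller differences. All 12 microglial genes had a positive fold, 4 of them without overlap (33.3%, against 8.03% of all genes), with a median log2 fold of 0.31. Cx3cr1, the fractalkine receptor, was at 57.9, 72.9 and 55.8 against 36.6, 61.9 and 58.6 CPM, and P2ry12, a purine receptor, at 38.9, 58.8 and 41.3 against 26.8, 43.0 and 46.6 CPM, both with overlap. Tmem119, at 19.8, 24.4 and 20.9 against 12.4, 17.6 and 18.7 CPM, and Csf1r, the receptor that keeps microglia alive, at 102, 129.9 and 99.0 against 68.4, 94.4 and 93.1 CPM, had groups that did not overlap. The median was 0.15 without library 1 labelled Tfap2b+/-, which was lowest for all 4 of these genes, and 0.19 without Tfap2a+/- library 2, the highest.

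Myelin genes pointed the other way, with a negative fold in all 13 but no member without overlap and a median of -0.41. Mbp, a main myelin protein, was at 2308, 1786 and 973 CPM against 2919.7, 2718 and 1079 CPM, and library 3 was the lowest of both groups. The myelin median was -0.12 without Tfap2a+/- library 3 and -0.77 without library 1, and it turned to 0.32 with a surrogate variable in the fit. Oligodendrocyte precursor genes had a median of -0.26, which was -0.040 without Tfap2a+/- library 3, -0.43 without Tfap2a+/- library 1, -0.17 without library 1 labelled Tfap2b+/- and 0.079 with the surrogate variable. Endothelial (0.028) and mural lists (-0.014) had medians near 0, which ran from 0.0013 to 0.053 and from -0.11 to 0.032 with each library left out. The astrocyte median of -0.12 was -0.28 without library 3 and 0.031 without library 1 labelled Tfap2b+/-. The ependymal median of -0.12 was not stable: it was -1.48 without Tfap2a+/- library 1, 0.47 without library 1 labelled Tfap2b+/- and 1.20 with the surrogate variable.

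Genes linked to sleep were listed because AP-2 factors are studied for it. Of 23 measured genes 15 had a positive fold. Without overlap, 4 were higher (17.4%, against 8.03% of all genes) and 1 lower (4.35%, against 9.2%). The median log2 fold was 0.18. That median was 0.11 without Tfap2a+/- library 2 or without library 1 labelled Tfap2b+/-, 0.088 with the surrogate variable and 0.062 without library 1 of both groups. The kinase Sik1 was at 29.7, 12.6 and 12.9 against 13.9, 9.98 and 15.1 CPM with overlap, Sik2 at 42.9, 45.6 and 46.6 against 35.6, 39.0 and 41.6 CPM without it, and Sik3 at 216, 195 and 163 against 219.9, 206 and 171 CPM with overlap. Camk2a, the calcium-dependent kinase of excitatory synapses, was at 2749, 4126 and 4604 against 1448, 3018 and 3367 CPM with overlap. The members that were higher without overlap were Sik2, Adora2a, Homer1 and Adrb1, and Kcnn2, a calcium-activated potassium channel, was the lower one at 22.9, 28.4 and 28.3 against 43.0, 38.2 and 30.2 CPM. Of these 5 names, the 4 other than Sik2 were chosen after their values were seen.

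Lists of housekeeping machinery had medians near 0. Cytosolic ribosomal protein genes had a positive fold in 26 of 32 but a median log2 fold of 0.10 (0.043 to 0.16 with each library left out in turn). Their 1 member without overlap was 3.125% of the list, against 8.03% of all genes. For complex I of the respiratory chain 18 of 25 were positive, with a median of 0.038 (0.0089 to 0.075). Of these, 5 were without overlap (20% of the list, against 8.03% of all genes). Proteasome genes had a median of 0.043 (0.0022 to 0.068) and 3 of 25 members (12%, against 8.03% of all genes) higher without overlap. Cholesterol synthesis genes had a median of -0.019 (-0.085 to 0.020). Of 22 chromatin regulators 5 (22.7%) were lower in Tfap2a+/- without overlap, against 9.2% of all genes, and 2 higher (9.09%, against 8.03%). Their median was -0.042 (-0.090 to 0.037). Of 21 circadian clock genes 6 (28.6%) were higher without overlap, against 8.03% of all genes, and 1 lower (4.76%, against 9.2%). Their median of 0.085 turned to -0.031 without Tfap2a+/- library 3. Of 15 glucocorticoid-responsive genes and receptors 3 (20%, against 8.03% of all genes) were higher without overlap and 1 lower (6.67%, against 9.2%). Their median of 0.05 turned to -0.068 without Tfap2a+/- library 1.

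The labels give the heterozygotes different alleles at Tfap2a and Tfap2b, so genes within 5 Mb of each were counted. Near Tfap2a on chromosome 13, 54 genes were tested, of which 10 were higher and 3 lower in Tfap2a+/- without overlap (24.1%, against 17.2% of all genes), with a median log2 fold of 0.030. Near Tfap2b on chromosome 1, 38 genes were tested, with 3 higher and 6 lower (23.7%) and a median of -0.11. None passed with edgeR at either locus. An unadjusted p under 0.05 was reached by 8 of 54 genes near Tfap2a and 7 of 38 near Tfap2b, against 11.5% of all genes. DESeq2 called 1 gene there, against 1.31% of all genes. This was Sbspon, a secreted protein gene, at 0.377, 0.0891 and 0.276 CPM in Tfap2a+/- against 1.06, 1.62 and 0.792 CPM (log2 fold -2.17 ± 0.49).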

How the data were processed

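RNA counts were analysed for 3 libraries each labelled Tfap2a+/-, Tfap2b+/- and B6N. The authors deposited whole-number counts per gene for each library, on the build GRCm38.p6 and with cutadapt 2.4, STAR 2.6.1d and edgeR among the tools, per the submitters' processing notes. Which annotation release they used is not stated. The reverse-strand counts were used, since the labels' protocols describe a dUTP kit, and 4 rows without a gene were left out throughout: fragments in no exon (7.30% to 11.8%), at several positions, unmapped or ambiguous. Names and coordinates are from GENCODE M21 (54409 of 54446 identifiers).

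Genes passing filterByExpr (17355) were fitted with edgeR 4.0.16 under R 4.3.3, using TMM scaling and the quasi-likelihood test, all 9 libraries sharing 1 estimate of spread, with Benjamini-Hochberg adjusted p under 0.05 called. The SE was derived from the log2 fold and its F value. DESeq2 1.42.0 and the other alternatives are given in the closing section, and the fit was tested on simulated data. Gene lists were described by counts and medians without a test of the list. The share of fragments outside exons was compared with a two-sided exact permutation test.

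Named were AP-2 genes and cofactors, the 12 genes of smallest p in each direction, up to 4 members of a list in the list's order where its median log2 fold was at least 0.25 in size (a few lists always), and genes called near the loci. The comparison, lists and members were chosen with earlier results of these data known. Counts of near-identical gene copies are uncertain, since reads at several positions were not counted.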

Additional observations from a re-analysis of the deposited data

How the results depend on the processing

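The count of genes called between the heterozygotes was 0 with edgeR and its DESeq2 size factors, a filter of 1 CPM in 3 libraries, unstranded counts, only the 6 libraries compared, a robust fit and 1 surrogate variable. DESeq2 called 228 (98 higher and 130 lower in Tfap2a+/-), and edgeR without a filter 7 (4 higher, 3 lower). Leaving out each library in turn gave 0 to 31 calls, 0 to 3 higher and 0 to 28 lower. The number of genes at an unadjusted p under 0.05, 1997 in the fit reported, was then 1096 to 3293, and 1223 without library 1 of both groups. Near the 2 loci DESeq2 called 1 gene. The causes were not tested. With the replicate number as a block, 0 genes were called and 1848 had an unadjusted p under 0.05. Deviations of same-numbered libraries of the heterozygotes had correlations of 0.337, -0.0255 and 0.143. Those of differently numbered libraries ran from -0.298 to 0.224. The labels do not say that replicate numbers pair samples, so libraries were not treated as pairs.

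Of 94 named genes that were followed across the alternatives, 9 changed sign somewhere, all with groups that overlapped. The mitochondrial genes and Fmod, named below, were not among the 94. With a surrogate variable the log2 fold was 0.090 for Neat1, 0.18 for Tfap2a, 0.32 for Mbp, 0.13 for Sik3 and 0.051 for Canx. With 1 library left out in turn it ran from -0.030 to 0.72 for Sik1 (negative without Tfap2a+/- library 1), -0.16 to 0.052 for Sik3 and -0.071 to 0.037 for Canx (positive without Tfap2a+/- library 3 or, at 0.017 and 0.016, library 1 labelled Tfap2b+/-), -0.068 to 0.11 for Edem1 (negative without library 3 labelled Tfap2b+/- or, at -0.040, of Tfap2a+/-), -0.095 to 0.11 for Jun (negative without Tfap2a+/- library 2 or, at -0.080, library 1 labelled Tfap2b+/-) and -0.083 to 0.076 for Cited2 (positive without Tfap2a+/- library 2 or, at 0.060, library 3 labelled Tfap2b+/-). Jun was at -0.0014 without library 1 of both groups. With 3 libraries a group, folds of genes near the limit of 3 counts are imprecise.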

Other observations

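Genes that the mitochondrial genome encodes had a positive fold in 9 of 10 measured members, with a median log2 fold of 0.16. In 3 members (30%, against 8.03% of all genes) the groups did not overlap. mt-Nd4, a subunit of complex I, was at 3813, 4448 and 3651 CPM in Tfap2a+/- against 3022, 3283 and 3591 CPM, and mt-Cytb, the cytochrome b of complex III, at 7855, 9162 and 7541 against 6416, 6628 and 7466 CPM, with Tfap2a+/- library 2 the highest for both. Some members, such as mt-Co2 at 0.445, 0.624 and 0.645 CPM, were near 0. Reads at several positions were not counted, and their part in these low values was not tested. The median was 0.079 without Tfap2a+/- library 2.

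Markers of meningeal fibroblasts had a negative fold in 14 of 15 members and a median of -0.23, with no member without overlap. Fmod, a matrix proteoglycan, was at 28.2, 25.1 and 38.2 against 33.6, 29.02 and 62.1 CPM, and library 3 was the highest of both groups. Without library 3 labelled Tfap2b+/- the median was 0.0079. Receptor subunits for GABA and glycine (median 0.063), glutamate receptor subunits (0.11) and sodium and potassium channel subunits (0.11) had members in both directions, and their medians were not stable. The first turned to -0.032 without library 3 labelled Tfap2b+/-. The glutamate median turned to -0.11 without library 1 labelled Tfap2b+/- and -0.046 without Tfap2a+/- library 3, and the channel median was 0.037 without library 1 labelled Tfap2b+/- and -0.0036 with a surrogate variable.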
